A study of Canis lupus familiaris with 6 samples.

Results

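RIPPLY1, a transcriptional corepressor, and the Groucho/TLE corepressors that Ripply proteins recruit were followed in MDCKII cells, an established epithelial line from dog kidney (Madin-Darby canine kidney), grown flat or as cysts. The genes looked for were RIPPLY1, RIPPLY2, TLE1, TLE2, TLE3 and TLE4. A probe set, a group of array probes read as 1 value, was taken when the platform annotation gave it exactly 1 gene symbol and that symbol was among these names. This found 4 of the 6 genes, with 7 of 42924 probe sets: 1 for RIPPLY1, 2 for TLE1 (a and b), 1 for TLE3 and 3 for TLE4 (a, b and c). The plots give their identifiers. RIPPLY2 and TLE2 had no probe set under this rule and were not analysed here. RIPPLY1 was chosen by its measured values: its 3D minus 2D difference was the highest of all probe sets on the arrays tested, so its values are given as a description with no p-value. The TLE genes were added as the known partners of Ripply proteins.

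The 2D group was MDCKII cells on plastic, polarized as a confluent sheet, and the 3D group was MDCKII cells building cysts in Matrigel, a basement membrane extract. For 3D, a layer of 100 µl was spread on a 60 mm dish and the medium held 2% Matrigel, whereas 2D dishes had none. RNA of both groups was taken 36 h after plating, so that all 6 arrays come from 1 line at 1 time and no group was given another agent or genetic change. There were 3 arrays per group, called biological replicates in the labels. Whether each came from a culture of its own is not stated further, so the p-values measure the spread between these samples.

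Ripply proteins are small nuclear corepressors known from the segmentation of the paraxial mesoderm into somites. They bind T-box transcription factors and, through a short tryptophan-containing motif, bring in a Groucho/TLE protein, which turns the T-box factor from an activator into a repressor. TLE proteins themselves do not bind DNA. They form oligomers, are recruited by many factors such as HES, RUNX, PAX and TCF/LEF proteins, and work together with histone deacetylases.

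The values are log2 expression levels, and they do not lie on 1 scale. The arrays of replicates 2 and 3 had medians of 7.06 to 7.08 and lower quartiles of 5.64 to 5.67. The replicate 1 arrays had medians of 5.42 in 2D and 5.26 in 3D and held 246 and 413 values below 0. Differences were therefore tested on replicates 2 and 3 (n = 2 arrays per group), and the replicate 1 pair is given beside them as a single untested difference. Differences were wider in replicate 1, with a median absolute difference of 0.66 over all probe sets against 0.145 on the tested arrays. The first is between single arrays and the second between means of 2 arrays, so the measures are not alike. The marker list for kidney epithelium had 9 measured genes, among them the cadherin gene CDH1 and the keratin genes KRT8 and KRT18, and all 9 lay above the array median on each of the 4 tested arrays. Of 8 fibroblast markers 0 did so, of 6 immune markers 1 and of 5 endothelial markers 1. Their mean levels were 6.07 to 6.09 for the fibroblast list, 6.43 to 6.55 for the immune list and 6.50 to 6.56 for the endothelial list on these arrays. Poly-A spike-in controls, added RNAs that follow the labelling, were brighter in 3D by 0.693, 0.853 and 0.0807 (log2) in replicates 1, 2 and 3. Their part in the results below was not tested.

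RIPPLY1 transcript was much higher in the cysts than in the monolayer, in all 3 replicates. On its single probe set the log2 level was 7.72 in 2D replicate 2 and 8.27 in 2D replicate 3, against 13.3 in 3D replicate 2 and 13.0 in 3D replicate 3. Both 3D arrays lay far above both 2D arrays, and neither group spread by more than 0.55. The replicate 1 arrays, on their own scale, read 6.54 in 2D and 11.98 in 3D. The order was thus the same on both scales, and no RIPPLY1 value fell below the lower quartile of its array.

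The 3D minus 2D differences of RIPPLY1 were 5.44 in replicate 1, 5.58 in replicate 2 and 4.73 in replicate 3. As folds, 3D was 43.4 times 2D in replicate 1, 47.8 times in replicate 2 and 26.5 times in replicate 3. Arrays of the same number were set against each other here only for description, since the numbers were not treated as pairs. The fitted log2 fold change on replicates 2 and 3 was 5.155 (SE 0.204, n = 2 arrays per group), or 35.6-fold. It ranked 1 of 42924 on these arrays, which is how the gene was chosen, and the replicate 1 difference ranked 11. The SE is thus a description of these arrays and no test of the gene. The next named probe set on the tested arrays was one of FABP1, which encodes the liver fatty acid-binding protein, at 4.78. Since the arrays carry whole-culture RNA, more cells with RIPPLY1 transcript and more transcript per cell cannot be told apart. No second RIPPLY1 probe set was measured against which this one could be set.

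**Figure D1:**
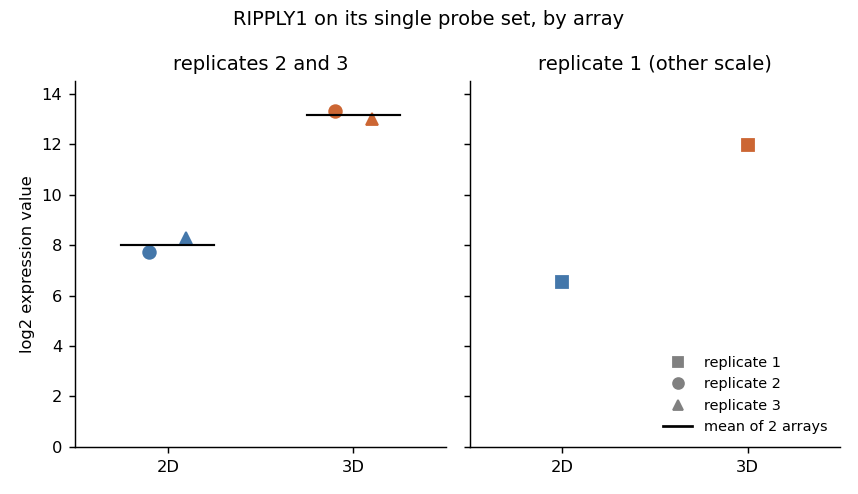
Log2 expression value of RIPPLY1 (vertical axis) in 2D and 3D arrays (horizontal axis), with replicates 2 and 3 on the left, replicate 1 on its own scale on the right, 1 point per array and a line at the mean of 2 arrays. The 3D arrays of replicates 2 and 3 sit at 13.3 and 13.0, above 7.72 and 8.27 in 2D, and the replicate 1 pair sits at 11.98 and 6.54.

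The Groucho/TLE genes had far smaller differences. Of their 6 probe sets, 1 passed a limma adjusted p of 0.05, higher in 3D, 0 passed lower, and 5 did not pass. Over all probe sets 6.61% passed in either direction, 3.65% higher and 2.96% lower. The median log2 fold change of the 6 probe sets was 0.03, against -0.005 over all 42924. In 5 of the 6 the 2D and 3D arrays of replicates 2 and 3 did not overlap, 3 of them higher and 2 lower in 3D, and 51.8% of all probe sets had groups that did not overlap in that way, 25.1% higher and 26.7% lower.

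TLE4, a full-length Groucho corepressor, had the probe set that rose. On probe set a the log2 levels were 6.64 and 6.55 in 2D replicates 2 and 3 and 7.68 and 7.22 in the 3D arrays of the same numbers. Both 3D values lay above both 2D values, and the 3D arrays were farther apart, by 0.46 against 0.09. The log2 fold change was 0.855 (limma adjusted p = 0.0398, SE 0.166, n = 2 arrays per group), a 1.81-fold rise. Replicate 1 differed by 0.10, from 5.70 in 2D to 5.80 in 3D. The call was lost as the mean of the gene's probe sets (log2 fold change 0.49, limma adjusted p = 0.0794). It was also lost with the replicate block (limma adjusted p = 0.163), under which no probe set passed at all. The log2 fold change was 0.90 without 2D replicate 2, 0.81 without 2D replicate 3, 0.625 without 3D replicate 2 and 1.085 without 3D replicate 3. These fits leave 1 array in a group, so only the log2 fold change is given. The call was kept in 4 of the 13 alternative settings, with a limma adjusted p of 0.0327 at the lowest. The sign of the difference stayed above 0, though some of these settings cannot change the estimate.

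The other TLE4 probe sets were also above 0 on the tested arrays and did not pass. Probe set b read 7.02 and 6.80 in 2D and 7.62 and 7.13 in 3D. Its difference was 0.465 (95% interval 0.021 to 0.909, limma adjusted p = 0.195), with 3D above 2D on both arrays and a replicate 1 difference of -0.12. Probe set c read 6.29 and 6.07 in 2D and 6.30 and 6.36 in 3D. Its difference was 0.15 (95% interval -0.13 to 0.43, limma adjusted p = 0.516), and the groups were separated by 0.01 at their nearest. In replicate 1 this last probe set differed by 2.36, from 2.85 in 2D, under the lower quartile of 3.52 there, to 5.21 in 3D. Single arrays moved both values by over 1.5 times. Probe set b was at 0.22 without 3D replicate 2 and 0.71 without 3D replicate 3, and probe set c at 0.26 without 2D replicate 2 and 0.04 without 2D replicate 3. The 3 TLE4 probe sets thus agreed in sign on the tested arrays and not in size, and in replicate 1 they differed in both.

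TLE1, a full-length Groucho corepressor also used in pathology as a marker of synovial sarcoma, was slightly lower in 3D on both probe sets, and neither passed. Probe set a read 9.20 and 8.81 in 2D and 8.88 and 8.73 in 3D, so that the groups overlapped. Its difference was -0.20 (95% interval -0.58 to 0.18, limma adjusted p = 0.513) and -1.23 in replicate 1. Probe set b read 6.78 and 6.58 in 2D and 6.40 and 6.43 in 3D, with no overlap. Its difference was -0.265 (95% interval -0.54 to 0.0097, limma adjusted p = 0.228). In replicate 1 it was -3.31, from 6.20 to 2.89, and the 3D value was dim, under the lower quartile of 3.38 there, which makes its size uncertain. Both signs were below 0 in replicate 1 too, where 55.9% of all probe sets were below 0. They were also below 0 under all 13 alternative settings, some of which cannot change the estimate. The sizes rested on single arrays: probe set a was at -0.005 without 2D replicate 2, -0.395 without 2D replicate 3 and -0.125 without 3D replicate 3, and probe set b at -0.165 without 2D replicate 2. The tested intervals do not reach the replicate 1 values, but those are on the other scale, so the sizes cannot be set against each other.

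TLE3, known for its part in adipocyte gene programmes, had values a little above the lower quartiles, and its groups lay close together. Its probe set read 5.89 and 5.91 in 2D and 5.84 and 5.78 in 3D, where the lower quartiles were 5.64 to 5.67. The 3D arrays were lower by a narrow margin. The difference was -0.09 (95% interval -0.33 to 0.15, limma adjusted p = 0.661) and -0.54 in replicate 1. The interval leaves room for a change of at most 0.33 in size on the log2 scale. In all, 5 of the 6 TLE probe sets had the same sign in replicate 1 as on the tested arrays, against 55.1% of all probe sets. Probe sets whose identifier ends in s_at, which are 4 of these 6, can share probes with more than 1 transcript, so related TLE transcripts may contribute to them.

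**Figure D2:**
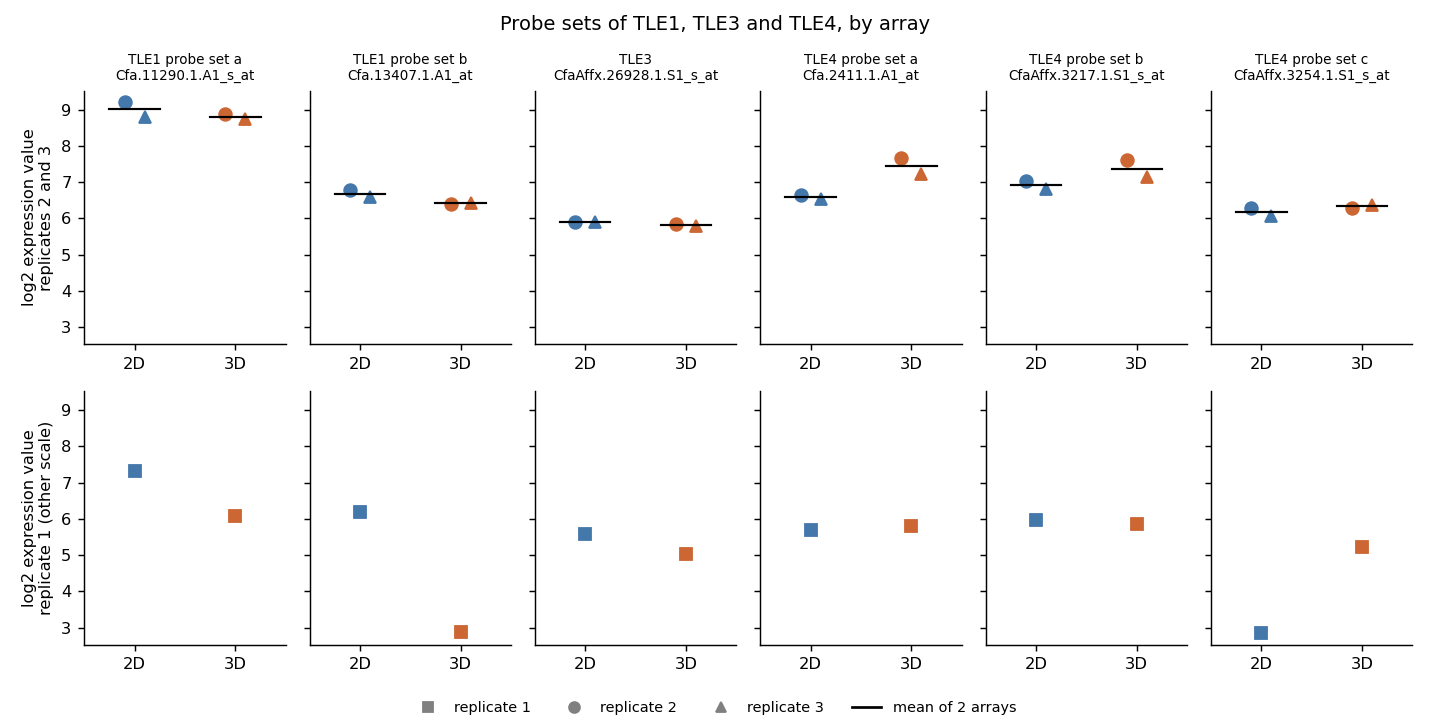
Log2 expression values (vertical axis) of the 6 TLE1, TLE3 and TLE4 probe sets in 2D and 3D arrays (horizontal axis), with replicates 2 and 3 in the upper row, replicate 1 on its own scale in the lower row, 1 point per array and lines at the mean of 2 arrays. TLE4 on probe set a goes from 6.64 and 6.55 in 2D to 7.68 and 7.22 in 3D, while TLE3 stays between 5.78 and 5.91.

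**Figure D3:**
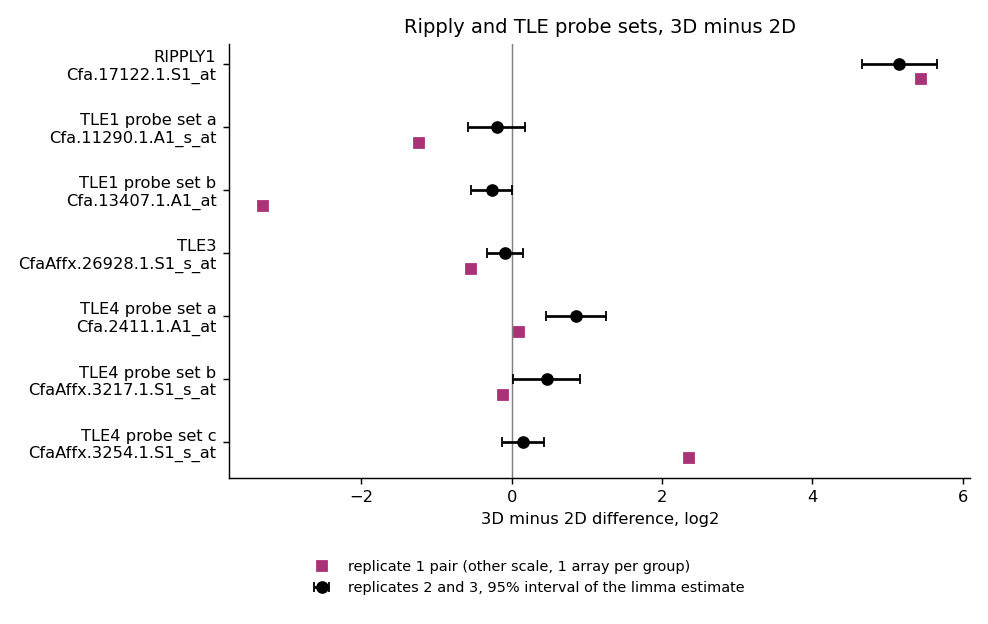
The 3D minus 2D difference on the log2 scale (horizontal axis) for each of the 7 probe sets, as the limma estimate with its 95% interval on replicates 2 and 3 (circles, n = 2 arrays per group) and as the single replicate 1 difference (squares). RIPPLY1 lies at 5.155 and 5.44, and the TLE estimates lie between -0.265 and 0.855. RIPPLY1 was chosen by these values, so its interval is a description and not a test.

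The remaining relatives did not pass. TLE6, a shorter and more divergent family member known from the oocyte, had 2 probe sets and 0 of them passed, against 6.61% of all probe sets. They differed by 0.21 (limma adjusted p = 0.283) and -0.185 (limma adjusted p = 0.338). TLE7 differed by 0.04 (limma adjusted p = 0.889). Of these 2 genes 0 passed in limma on the brightest probe set, against 7.29% of all genes. On the same probe sets 0 had an unadjusted p under 0.05, against 25.2% of all genes.

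T-box factors, the DNA-binding partners of Ripply proteins, showed no called change. Each gene of the following lists is represented by its brightest probe set. Of 16 measured T-box genes 0 passed in limma and 16 did not, against 7.29% of all genes passing. An unadjusted p under 0.05 was found for 2, both lower, and for 25.2% of all genes. Their median log2 fold change was 0.0375, with -0.01 over all 15115 genes, and every 95% interval lay between -0.523 and 0.487. TBX6, the partner best known from somite formation, differed by 0.11 (limma adjusted p = 0.638), and TBXT, the founding brachyury gene, by 0.05 (limma adjusted p = 0.826). The lowest was TBX18 at -0.265 and the highest TBX21 at 0.16. In replicate 1, TBX6 differed by 0.85 and TBX18 by -0.05. Several T-box genes were dim on the tested arrays, where the lower quartiles were 5.64 to 5.67. Mean levels in 2D and 3D were 4.90 and 4.705 for TBX15, 5.08 and 5.215 for EOMES, and 5.22 and 5.24 for MGA. They were 5.345 and 5.085 for TBX5, and 5.615 and 5.665 for TBXT. For such genes an unchanged transcript and a signal near background cannot be told apart.

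Genes of the somite segmentation programme in which Ripply genes act did not pass either. Of 21 genes listed, 18 were measured. Of these 18, 0 passed in limma against 7.29% of all genes, and 1 had an unadjusted p under 0.05, against 25.2%. This was TCF15, a basic helix-loop-helix factor of the paraxial mesoderm, at -0.305 (limma adjusted p = 0.130). The list's median was -0.0575. MESP1 differed by -0.04, LFNG, which modifies Notch, by 0.01, and HES7, an oscillating Notch target, by 0.13. The list's mean level was 6.82 to 6.87 on the 2D arrays and 6.78 to 6.84 on the 3D arrays. RIPPLY1, chosen as the highest probe set, was 5.155 higher on the tested arrays, where the 18 segmentation genes lay between -0.305 and 0.22. Of these 18 genes, 7 lay above the array median on all 4 tested arrays, and 0 lay under the lower quartile on all 4. In replicate 1 these genes lay between -1.63 (MSGN1) and 2.08 (FGF8). Many were dim there, with 10 under the lower quartile in 2D and 9 in 3D.

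Transcription factors that recruit TLE proteins gave 0 calls among 28 measured genes in limma, against 7.29% of all genes. At an unadjusted p under 0.05 there were 2 higher and 3 lower, against 25.2% of all genes in either direction. The median was -0.0075. RUNX2, a bone and cartilage factor, was lowest at -0.485 (limma adjusted p = 0.0725), and FOXA2, a factor of endoderm, highest at 0.405 (limma adjusted p = 0.0834). HES3, a repressor of the hairy family, differed by -0.415 (limma adjusted p = 0.0648). PAX8, the kidney epithelial factor, differed by 0.22 (limma adjusted p = 0.276) and TCF7L2, the main TCF of epithelia, by -0.05 (limma adjusted p = 0.841). For cofactors and modifying enzymes of TLE, 0 of 13 genes passed in limma and, beside the same 7.29% and 25.2% of all genes, 1 had an unadjusted p under 0.05, the kinase gene HIPK2 at -0.30 (limma adjusted p = 0.145). The histone deacetylase genes HDAC1 and HDAC2 differed by 0.02 (limma adjusted p = 0.943) and -0.27 (limma adjusted p = 0.257). All 13 were lower in 3D in replicate 1, where the median difference over all genes was -0.11 and this list's was -0.37.

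TCF/beta-catenin target genes are a class that TLE proteins repress when they occupy TCF factors. Of 16 measured genes 1 passed, lower in 3D, and 15 did not, against 3.09% of all genes passing lower and 4.2% higher. The median was -0.095. The gene was MYC, the growth-promoting transcription factor. Its log2 levels were 10.97 and 11.11 in 2D and 9.77 and 9.97 in 3D, with no overlap. The log2 fold change was -1.17 (limma adjusted p = 0.0104, SE 0.119, n = 2 arrays per group) and the replicate 1 difference was -2.81. The call was lost with the replicate block (limma adjusted p = 0.153), under which no probe set passed at all. Without any single array among 2D and 3D replicates 2 and 3, the log2 fold change was -1.27 to -1.07. AXIN2, the standard readout of the pathway, differed by -0.305 (limma adjusted p = 0.130), LGR5, a stem cell receptor gene, by -0.13 (limma adjusted p = 0.597) and LEF1 by 0.275 (limma adjusted p = 0.188). CCND1, which encodes cyclin D1, did not pass on its brightest probe set (-0.47, limma adjusted p = 0.0947), and fell on its other one (-0.90, limma adjusted p = 0.0207). When both were averaged it passed (-0.685, limma adjusted p = 0.0306). In that fit, adjusted over genes, HES3 with its single probe set passed as well (limma adjusted p = 0.0453). Over all the pathway lists, 1 of 89 genes passed, or 1.12%, against 7.29% of all genes.

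**Figure D4:**
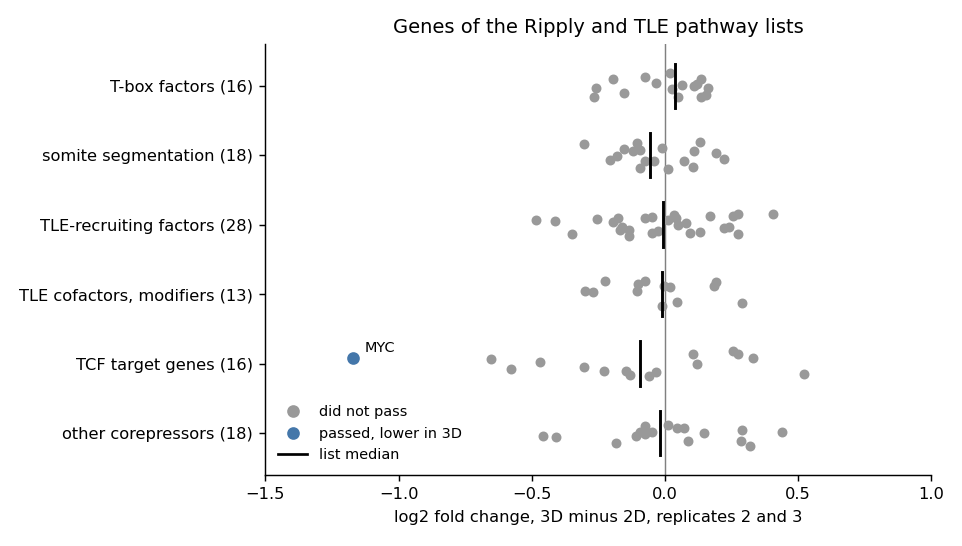
Log2 fold change, 3D minus 2D on replicates 2 and 3 (horizontal axis), of each measured gene in 6 lists (vertical axis, number of genes in brackets), with a vertical bar at each list's median. Only MYC, at -1.17, passed the limma threshold among the genes drawn, and the list medians lie between -0.095 and 0.0375.

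On the chromosome, RIPPLY1 lies near CLDN2 and RNF128, which were also higher in 3D. A link between these genes was not tested. RefSeq's gene list for dog assembly UU_Cfam_GSD_1.0 served here only for the order of genes. In it RIPPLY1 is on chromosome X with TBC1D8B on one side and CLDN2 on the other. The 3 nearest measured genes on each side were taken, a choice made after the values of RIPPLY1 and CLDN2 had been seen. Of their 12 probe sets 2 passed higher, 0 passed lower and 10 did not pass. Over all probe sets 3.65% passed higher and 2.96% lower.

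CLDN2, the next protein-coding gene, encodes a claudin that forms cation pores in leaky kidney epithelium. Its log2 levels were 7.02 and 7.47 in 2D and 9.47 and 8.63 in 3D, with no overlap, and 5.92 and 7.15 in replicate 1. The log2 fold change was 1.805 (limma adjusted p = 0.0256, SE 0.290, n = 2 arrays per group). RNF128, a membrane-bound ubiquitin ligase gene that is second on the other side, read 7.66 and 7.52 in 2D and 8.53 and 8.69 in 3D, and 5.46 and 6.84 in replicate 1. The log2 fold change was 1.02 (limma adjusted p = 0.0121, SE 0.114, n = 2 arrays per group). Both calls were lost with the replicate block (limma adjusted p = 0.178 and 0.153), under which no probe set passed at all. Without any single array among 2D and 3D replicates 2 and 3, CLDN2 was at 1.385 to 2.225 and RNF128 at 0.94 to 1.1.

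TBC1D8B, a Rab GTPase-activating protein gene that lies next to RIPPLY1 on the side of RNF128, did not pass on any of its probe sets. Neither did MORC4, RADX and RBM41. The 10 probe sets of these 4 genes differed by -0.385 to 0.15 on the tested arrays and by -2.62 to 1.49 in replicate 1.

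**Figure D5:**
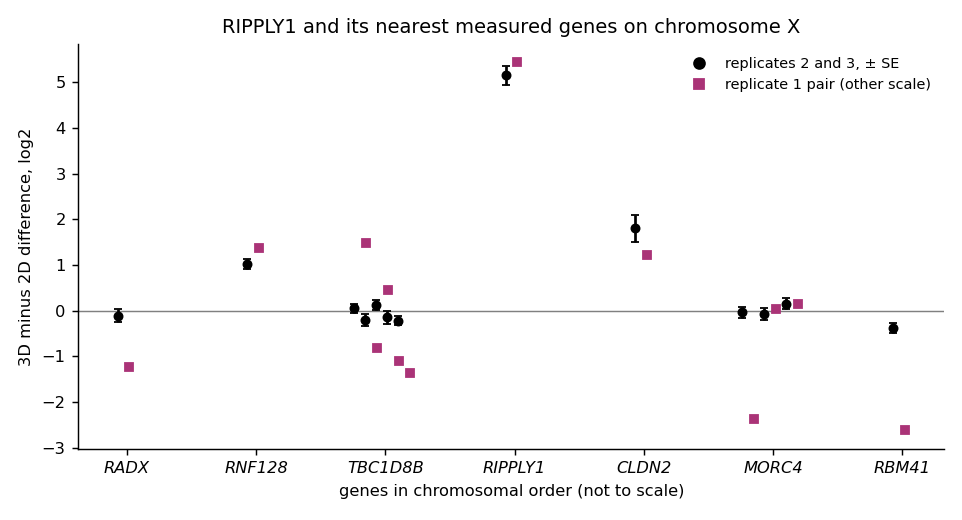
The 3D minus 2D difference on the log2 scale (vertical axis) for every probe set of RIPPLY1 and of the 3 nearest measured genes on each side, in chromosomal order and not to scale (horizontal axis), as limma estimates with SE on replicates 2 and 3 (circles) and replicate 1 differences (squares). RNF128 at 1.02 and CLDN2 at 1.805 lie above 0 with RIPPLY1 at 5.155, and TBC1D8B between RNF128 and RIPPLY1 stays near 0 on the tested arrays. The SE of RIPPLY1 is a description, since the gene was chosen by these values.

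Likeness of pattern to RIPPLY1 was measured as the Euclidean distance over the 6 arrays after the mean of each scale was subtracted, so a small distance needs a difference of similar size. Each gene was taken by its nearest probe set, and other probe sets of the same gene can differ. The nearest gene was FABP1 at a distance of 0.799, with differences of 4.78 on the tested arrays and 4.75 in replicate 1. Its other probe set differed by 3.99 and 6.35. RANBP3L, a gene for a Ran-binding protein, followed at 1.495, with differences of 3.99 and 4.35. PDZK1, a brush border scaffold gene, was at 1.79, PPP1R1B, a phosphatase inhibitor gene, at 1.82, and PIGR, the receptor that carries polymeric immunoglobulin across epithelia, at 2.09. These distances are descriptions, since all of these genes share the 6 arrays.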

How the data were processed

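Expression was measured on 1-colour Affymetrix canine arrays in 6 samples. The authors' deposited values are log2 levels, summarised by probe set. RMA (background correction, quantile normalization and summary of probes) and limma are named, without versions, per the submitters' processing notes. The sources used here do not say how the replicate 1 columns came to another scale. Across probe sets, replicates 2 and 3 correlated at Pearson's r of 0.982 to 0.997 with each other and of 0.861 to 0.872 with replicate 1.

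From 43035 probe sets, 111 controls were left out. The annotation gave 1 symbol for 29254, several for 439 and none for 13231. Differences were fitted with lmFit and eBayes of limma 3.58.1 (R 4.3.3) on the 4 arrays of replicates 2 and 3, two-sided. The p-values were adjusted by Benjamini-Hochberg over all 42924 probe sets, with a threshold of 0.05 and no filter on level. The same fit was also run on simulated arrays with known differences, without comparing other thresholds or filters. The number of arrays limits the precision. Tables were joined with pandas 2.3.3 and numpy 2.4.6 and drawn with matplotlib 3.10.9 in Python 3.11.15.

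The members and lists were chosen with earlier results of these data known. In lists, a gene is represented by the probe set of highest mean value (6 arrays). Named were all member probe sets, list genes that passed, a fixed set (TLE6, HDAC1, HDAC2, TCF7L2, PAX8), the 5 nearest patterns, and, after their values were seen, list extremes and a few familiar members. Replicate numbers were not treated as pairs: with 2 pairs, the deviations of same-numbered arrays had a correlation of 0.00127. Alternatives were other arrays, normalizations, priors and filters, the replicate block, and leaving out each array. No nucleotide or protein sequences were used here.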

Additional observations from a re-analysis of the deposited data

How the results depend on the processing

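For the 7 member probe sets and for MYC, CLDN2 and RNF128, the sign was kept in all 130 values from the 13 alternative settings. Of these 0 reversed, but part of this was fixed in advance. RIPPLY1 was chosen for its size, and MYC, CLDN2 and RNF128 had passed in the main fit, so a reversal was unlikely for them. The replicate block on 4 arrays, trend and robust priors and leaving out dim probe sets return the main estimate. So does the gene mean for a gene with 1 probe set, and it is counted for each probe set of TLE1 and TLE4. In 33 values a call was lost, all for TLE4 probe set a, MYC, CLDN2 or RNF128. Some of these settings left no call for any probe set, so the loss there was not particular to these genes. RIPPLY1 was given no p-value, so its calls were not counted. The log2 fold change of RIPPLY1 ranged from 4.88 to 5.43. Median centring, cyclic loess, trend and robust priors and leaving out dim probe sets kept 1 TLE probe set and 1 pathway gene past the threshold and 2433 to 3191 of all probe sets, against 2837. Leaving out any 1 of the 4 arrays left 1 array in a group and 1 residual degree of freedom, so only effect sizes are given for these fits. The replicate block on 4 arrays gave 0 limma calls among all probe sets (8325 at an unadjusted p under 0.05), 0 among TLE probe sets and 0 among pathway genes. All 6 arrays without a block gave 0, 0 and 0 (105 unadjusted), and quantile normalized with the replicate block 0, 0 and 0 (3517 unadjusted). All 6 arrays quantile normalized without a block gave 2 probe sets, with 0 TLE probe sets and 0 pathway genes (1775 unadjusted). Averaging the probe sets of each gene and adjusting over genes gave 1153 genes, 0 TLE genes and 3 pathway genes (MYC, CCND1 and HES3). The share of calls that were higher in 3D was 55.2%, and 49.0% in that fit. Signal near or under the lower quartile limits TLE3 and several T-box genes, and no detection calls were used here.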

Other observations

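Corepressors of other families, listed for comparison, gave no calls on the tested arrays. Of 18 measured, 0 passed in limma and 5 had an unadjusted p under 0.05, 3 higher and 2 lower, against 7.29% and 25.2% of all genes. CTBP1, a dehydrogenase-like corepressor gene, differed by -0.41 (limma adjusted p = 0.0857), MTA3, a subunit of the NuRD complex, by 0.44 (limma adjusted p = 0.0704), and TBL1XR1, a subunit of the NCoR complex, by -0.46 (limma adjusted p = 0.0758). The median was -0.02. These genes were named after their values had been seen.

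The 5 genes nearest in pattern to the TLE4 probe set that passed were ZNF395, PGAP6, DPP7, PFKL and EXT2. Each was taken by its nearest probe set, at distances of 0.064 to 0.114. PFKL encodes a phosphofructokinase of glycolysis and DPP7 a dipeptidyl peptidase. Their differences were 0.78 to 0.905 (log2) on the tested arrays and -0.01 to 0.10 in replicate 1, and ZNF395 (limma adjusted p = 0.0516) and PFKL (limma adjusted p = 0.0560) did not pass.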
